A study of Mus musculus with 22 samples.

Results

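The autophagy core genes described here are 10 mouse genes, Sqstm1, Map1lc3a, Map1lc3b, Gabarap, Gabarapl1, Becn1, Ulk1, Atg5, Atg12 and Wipi1. Their probes were found by name, as those whose transcript identifier maps to one of these symbols, with no threshold on a measured value. All 10 were on the array, with 13 probes, out of 20018 named genes and 55681 probes. Gabarap, Atg12 and Wipi1 had 2 probes each, and each gene is given by its brighter one unless stated otherwise.

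The cells were FE1, an epithelial line from the lung of the MutaMouse, a transgenic mouse that carries a bacterial reporter of mutation. They were incubated for 24 h with Mitsui7, a multi-walled carbon nanotube, at 12.5 µg/ml (low dose), 25 µg/ml (medium dose) or 100 µg/ml (high dose), or with no nanotubes (control). RNA was hybridised to 22 two-colour oligonucleotide arrays, 5 control, 6 low, 5 medium and 6 high. On every array the sample carried Cy5 and a common reference RNA from 11 mouse cell lines carried Cy3, so every value is a log2 ratio of sample to reference. All groups are of this 1 line, in monolayer, with no other cell type added. The series describes its samples as biological replicates, but both the labels and the study's methods describe repeated exposures within fewer separate experiments than a group has arrays. Which arrays shared an experiment is not given in the sources used here. Arrays of 1 experiment are not independent, so n counts arrays, and the SDs and p-values measure the spread between these arrays and may be too small.

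Autophagy encloses part of the cytoplasm in a double membrane, the autophagosome, and delivers it to the lysosome. A kinase complex around ULK1 starts the process, a lipid kinase complex around Beclin 1 marks the site, and WIPI proteins bind that lipid. ATG12 and ATG5 form a conjugate that helps attach the small LC3 and GABARAP proteins to the membrane, where receptors such as SQSTM1 (p62) tether ubiquitinated cargo and are themselves degraded. Messenger levels do not measure that flux.

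Of the 10 genes, Sqstm1 was higher than in the control at all 3 doses and Wipi1 was lower at the low dose. Sqstm1 rose 2.02-fold at the low, 2.25-fold at the medium and 2.99-fold at the high dose. The genes of the ATG8 family (Map1lc3a, Map1lc3b, Gabarap, Gabarapl1), the kinase gene Ulk1, Becn1 and the conjugation genes Atg5 and Atg12 did not pass the test at any dose. A gene was called when its limma adjusted p over all probes was 0.05 or lower, it differed by 1.5-fold or more, and its probe was detected on 4 or more arrays of either group. By this rule 2 of 10 genes were called at the low dose, where 5.17% of the 13662 named genes tested were called (2.17% higher and 3% lower). At the medium dose 1 of 10 was called, beside 8.87% of 13427 genes (4.23% higher, 4.64% lower), and at the high dose 1 of 10, beside 11.8% of 14053 (5.44% higher, 6.39% lower). The count for the set was therefore near the background at the medium and high doses, where Sqstm1 was the only gene called by its brighter probe. The other, dimmer probe of Wipi1 was called lower at the high dose (-0.60, limma adjusted p = 0.00113). The median log2 change of the 10 genes was -0.14, 0.03 and 0.04 from the low to the high dose, beside medians of 0.00059, 0.0014 and 0.0091 over all genes tested. The 3 comparisons share their control arrays.

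**Figure D1:**
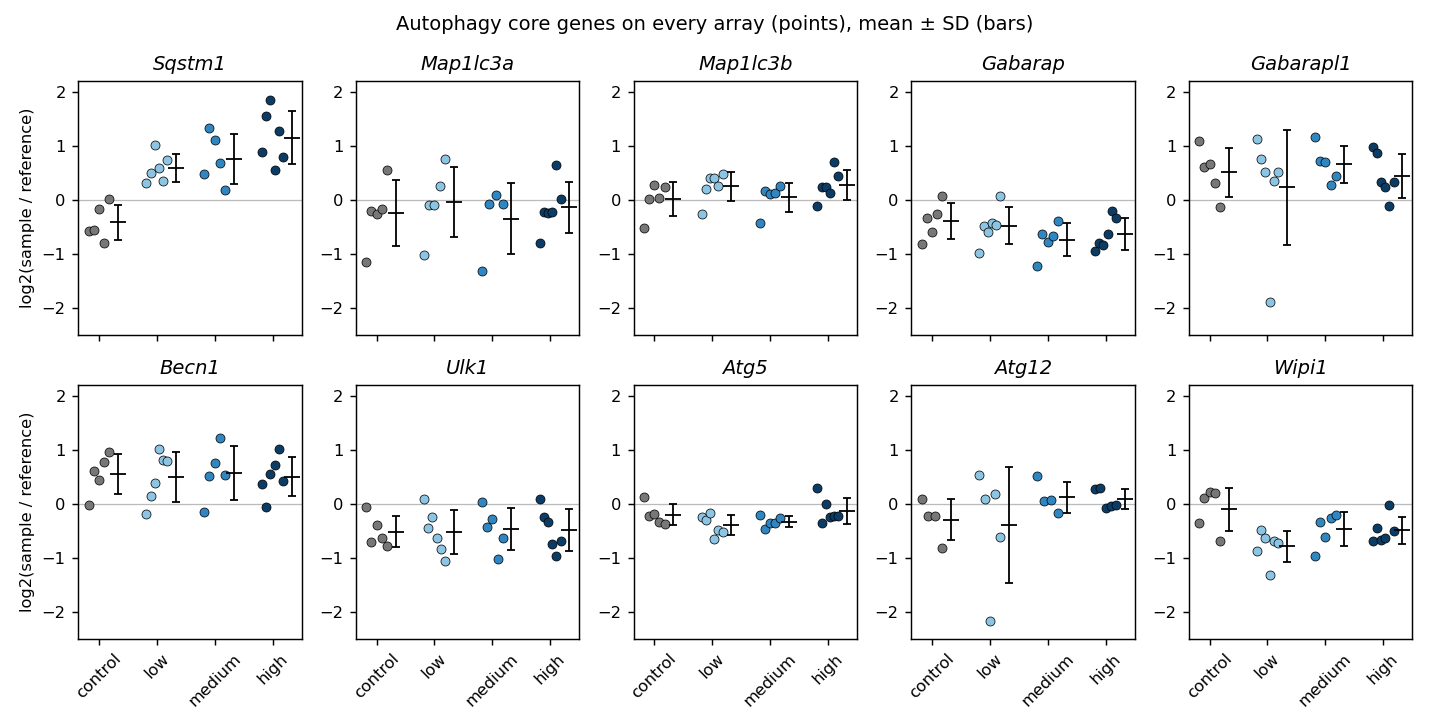
Log2 ratio of sample to reference (y axis) of the brighter probe of each gene on every array, by group (x axis), with 1 point an array and the mean ± SD beside the points. In Sqstm1 every exposed array lies above the highest control array (0.01), while in the other genes the groups overlap. Levels cannot be compared between genes.

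The array facts that bear on these values are few. Between 23688 and 39139 probes were detected on an array, and all 13 probes of the set were detected and well above background on every array, with none saturated. Of the 5 slides, the first carried every group in duplicate (8 arrays), slides 2, 3 and 4 had a single array per group, and slide 5 had a low dose and a high dose array but no control. After each slide was centred on its own mean, 15 of 22 arrays were nearest to their own group in their correlation over detected probes measured on every array. Of the other 7, low dose replicates 2 and 5 were nearest to the control arrays, medium dose replicates 1 and 5 to the high dose arrays and high dose replicate 6 to the medium dose arrays. Slide 5 held only low dose replicate 5 and high dose replicate 5, so centring made them mirror images (r = 0.36 and -0.36 with the control arrays). The placing of these slide 5 arrays therefore cannot be read. Low dose replicate 1 was nearest to the medium dose arrays (r = 0.47, and -0.34 with the other low dose arrays), and medium dose replicate 2 was nearest to the low dose arrays (r = 0.13, and -0.30 with the other medium dose arrays). Whether this pair was exchanged was not tested, the labels were kept, and the calls that change without the pair are given beside their genes. Of 7 markers of epithelium, 5 were detected in at least 1 group, and Epcam and Cdh1 in none. Of 7 markers of the lung epithelium 4 were detected, and Sftpa1, Sftpb and Nkx2-1 were not. Of the 5 macrophage markers on the array 4 were detected, and of 4 endothelial markers 2. All 6 fibroblast markers were detected, and their mean log2 ratio ran from -0.56 to -0.27 on the control arrays, -1.63 to -0.96 at the low, -1.67 to -1.48 at the medium and -1.90 to -1.48 at the high dose. Of these 6, 4 were lower at the low dose and 5 at the medium and high doses. Krt7, an epithelial keratin, was lower at the medium and high doses, and no macrophage, endothelial or lung epithelial marker was called. In bulk RNA, fewer cells of a type and less RNA per cell cannot be told apart, and the part of these changes in the results below was not tested.

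Sqstm1 encodes the cargo receptor that links ubiquitinated proteins to LC3 and that also binds KEAP1. The 5 control arrays had log2 ratios of -0.57, -0.56, -0.18, -0.79 and 0.01 (mean -0.42 ± 0.33, SD, n = 5). The low dose arrays ran from 0.31 to 1.02 with a median of 0.54, the medium dose arrays were 0.48, 1.32, 1.11, 0.68 and 0.18, and the high dose arrays ran from 0.55 to 1.85 with a median of 1.08. Every exposed array was above every control array, at each of the doses. Such a gap, with all exposed arrays higher, was found in 1 of the 10 genes and in 2.23% of all genes at the low, 5.05% at the medium and 5.66% at the high dose. The opposite gap, with all exposed arrays lower, was found in 0 of the 10 and in 2.58%, 4.88% and 5.73% of all genes.

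In the model with slide as a term, Sqstm1 rose by 1.01 on the log2 scale at the low dose (SE 0.20, limma adjusted p = 0.00438). The change was 1.17 at the medium dose (SE 0.20, limma adjusted p = 0.000912) and 1.58 at the high dose (SE 0.20, limma adjusted p = 1.68e-05). With low dose replicate 1 and medium dose replicate 2 left out, the changes were 1.06, 1.01 and 1.59, and all 3 calls held. The call held in every alternative at the high dose, where the change ranged from 1.40 to 1.77. It was lost at the low dose with median centring in place of loess (0.89, limma adjusted p = 0.0520), and at the low and medium doses with slide 1 left out (1.02, limma adjusted p = 0.0520, and 0.97, limma adjusted p = 0.0582).

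The mean level of Sqstm1 followed the order of the doses, at 0.59 ± 0.26 (SD, n = 6), 0.75 ± 0.47 (SD, n = 5) and 1.15 ± 0.50 (SD, n = 6). Neighbouring doses did not differ beyond their spread, and without low dose replicate 1 and medium dose replicate 2 the medium dose was 0.05 below the low dose (-0.05 on the log2 scale). The medium dose exceeded the low dose by 0.16 (95% interval -0.25 to 0.57) and the high dose exceeded the medium dose by 0.41 (95% interval -0.002 to 0.82). The high dose exceeded the low dose by 0.57 (95% interval 0.18 to 0.95), with an unadjusted limma p of 0.00593 but a limma adjusted p of 0.310, so this difference was not called. Among all 10 genes limma called 0 between any pair of doses. Over all named genes 0% were called for medium against low, 0% for high against medium and 0.434% for high against low. At an unadjusted limma p under 0.05, the 10 genes held 0, 0 and 2 in those comparisons, the 2 being Sqstm1 and Atg5 (0.26, limma adjusted p = 0.454). At that same unadjusted threshold there were 3174, 2311 and 4579 of all 55681 probes. That base holds probes that were not detected, unlike the 10 genes.

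Within slides the Sqstm1 difference from the control of the same slide was positive in all 12 comparisons. At the low dose it was 0.97, 1.39, 1.20 and 0.73 on slides 1 to 4, and at the high dose 1.79, 1.34, 2.03 and 0.79. At the medium dose it was 1.47, 1.47, 1.29 and 0.16. Slide 4, whose control (replicate 5) was the highest of the 5 controls, gave the smallest difference at each dose. Without that control the changes were 1.19, 1.35 and 1.76.

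**Figure D2:**
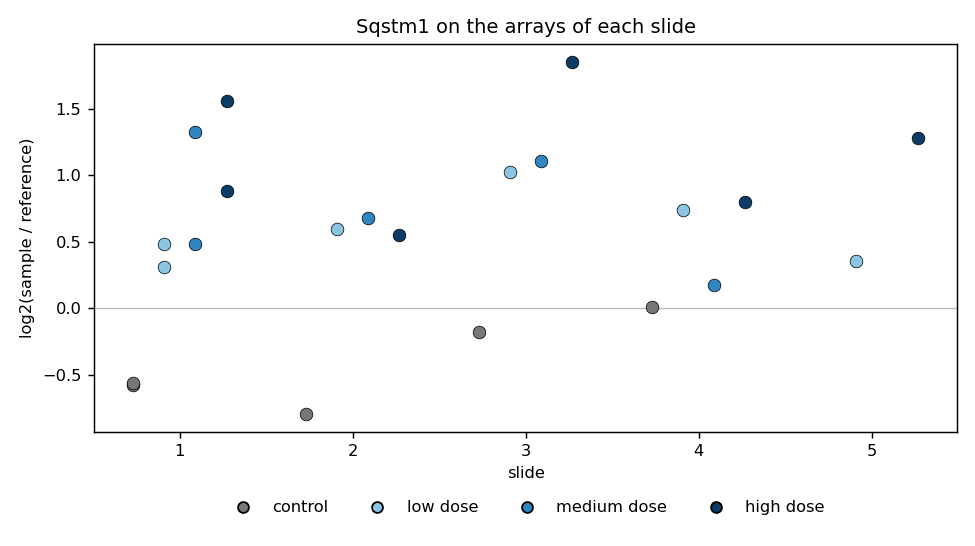
Log2 ratio of Sqstm1 (y axis) on each array, by slide (x axis) and coloured by group, with 1 point an array. On slides 1 to 4 every exposed array is above the controls of its slide, by 0.16 at the least for a group (medium dose, slide 4), and slide 5 holds no control.

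The stretch of 250 bases upstream of the annotated Sqstm1 start is shown because Sqstm1 is the gene of the set that rose. It lies at chr11:50210821-50211070 of GRCm38.p6 on the minus strand, was taken from RefSeq and is printed 5′ to 3′ with matches to the GC box letters GGGCGG, on either strand, in capitals.
Sqstm1: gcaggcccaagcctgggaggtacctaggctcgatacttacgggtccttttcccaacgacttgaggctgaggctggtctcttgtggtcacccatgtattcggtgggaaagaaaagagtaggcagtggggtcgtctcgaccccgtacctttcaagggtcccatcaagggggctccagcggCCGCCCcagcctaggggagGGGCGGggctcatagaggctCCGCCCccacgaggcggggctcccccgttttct
The stretch was 63.2% G and C and held 3 GC boxes, which begin 72, 53 and 33 bases before the start (positions -72, -53 and -33). Windows of this kind were matched for 7 of the 10 genes (Sqstm1, Map1lc3b, Gabarap, Gabarapl1, Ulk1, Atg5 and Wipi1). A GC box was in 6 of these 7 and in 32.7% of all 32851 windows of the same length. The letters TGACNNNGC, the core of the element that NRF2 binds, were in 0 of 7 and in 10.2% of all windows. The E-box CACGTG was in 1 of 7, Atg5, and in 6.02% of all windows. The GC box was picked after this sequence was seen. Both strands were searched, and a match or its absence describes only these letters in this window.

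Wipi1, which binds phosphatidylinositol 3-phosphate on the forming autophagosome, was the one member called lower. On its brighter probe the controls were -0.36, 0.11, 0.21, 0.20 and -0.69 (mean -0.11 ± 0.40, SD, n = 5). The low dose arrays ran from -1.31 to -0.49 with a median of -0.70, the medium dose arrays from -0.96 to -0.20 with a median of -0.34, and the high dose arrays from -0.69 to -0.02 with a median of -0.56. The groups overlapped, and 3 of 6 low dose arrays, 1 of 5 medium and 0 of 6 high dose arrays were below every control.

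The fitted change of Wipi1 was -0.74 at the low dose (SE 0.18, limma adjusted p = 0.0268), which was called. It was -0.37 at the medium (limma adjusted p = 0.373) and -0.44 at the high dose (limma adjusted p = 0.183), which were not. The other Wipi1 probe gave -0.50, -0.54 and -0.60 with limma adjusted p of 0.0125, 0.00536 and 0.00113, and of these the first 2 were under 1.5-fold and the high dose value was called. Both probes thus had negative changes at all 3 doses, and they differed in which dose passed. On the other probe 5 of 6 low, 4 of 5 medium and 5 of 6 high dose arrays were below every control.

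Within slides 1 to 4, the difference of Wipi1 on its brighter probe was -0.56, -1.51, -0.84 and -0.03 at the low dose, -0.53, -0.45, -0.82 and 0.49 at the medium, and -0.45, -0.82, -0.88 and 0.19 at the high dose. The control of slide 4 was the lowest of the 5 controls, and without it the high dose change was -0.63 and was called (limma adjusted p = 0.0264). The low dose call was lost in 18 of 44 alternatives, among them the removal of any one of 7 arrays (control replicates 2, 3 and 4, low dose replicates 1, 4 and 5, and high dose replicate 5). Without low dose replicate 1 and medium dose replicate 2 together it was -0.74 (limma adjusted p = 0.0606).

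**Figure D3:**
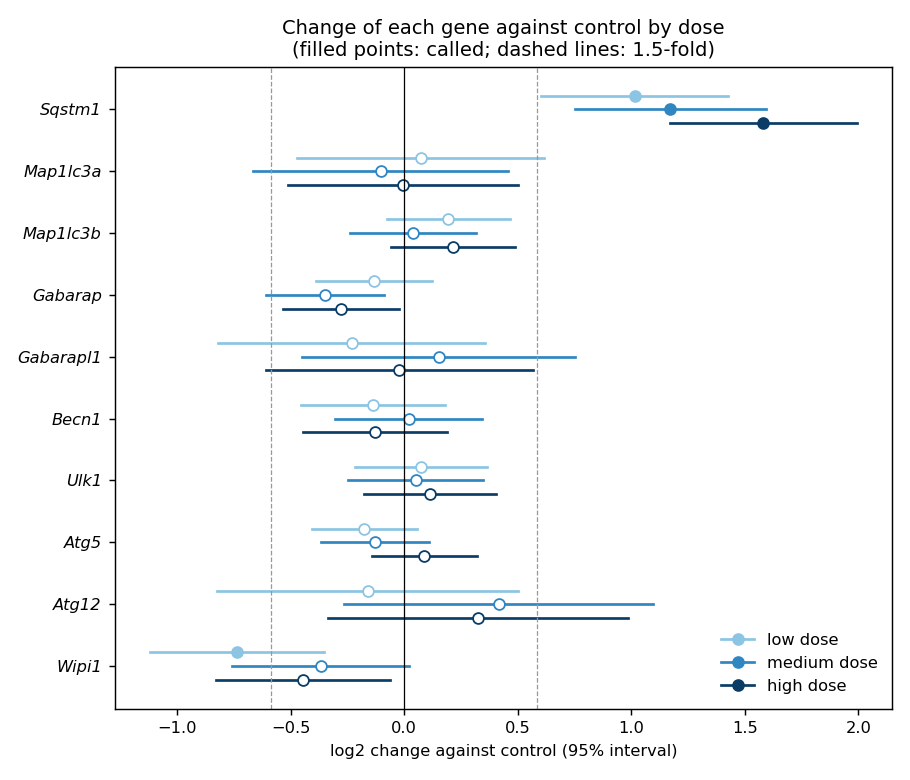
Fitted log2 change against control (x axis) of the brighter probe of each gene (y axis) at the low, medium and high dose, with 95% intervals. Filled points were called, and the dashed lines mark 1.5-fold. Sqstm1 stands at 1.01, 1.17 and 1.58, and among the other genes the low dose value of Wipi1 (-0.74) is the only filled point.

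The 4 ATG8 genes encode the small proteins that are coupled to lipid on the growing membrane. Map1lc3a had control arrays between -1.15 and 0.56 and high dose arrays between -0.81 and 0.65. Its changes were 0.07, -0.10 and -0.01 from the low to the high dose. Map1lc3b, whose protein is the usual marker of autophagosomes, had control arrays between -0.52 and 0.28 and high dose arrays between -0.12 and 0.69. Its changes were 0.19, 0.04 and 0.21. The 95% interval of Map1lc3b at the high dose was -0.06 to 0.49. Map1lc3a had no value on low dose replicate 3 and medium dose replicate 3, which were marked as outlier spots.

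Gabarap, which acts late in autophagosome maturation, had changes of -0.13, -0.35 and -0.28 on its brighter probe. The limma adjusted p was 0.713, 0.131 and 0.218. Its other probe gave -0.50, -0.33 and -0.52 (limma adjusted p = 0.241, 0.528 and 0.153), so all 6 values were negative and none passed. Within slides 1 to 4 the brighter probe differed from the control by -0.34, -0.40, -0.19 and -0.46 at the medium dose and by -0.29, -0.37, -0.25 and -0.40 at the high dose. With the replicate number as a block the Gabarap changes at these doses were -0.35 (limma adjusted p = 0.0207) and -0.32 (limma adjusted p = 0.0230), both under 1.5-fold.

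Gabarapl1, a close relative of Gabarap, had changes of -0.23, 0.15 and -0.02. Its low dose value rests in part on replicate 4, at -1.89 where the other 5 arrays lay between 0.34 and 1.12, and without that array the change was 0.19. In each ATG8 gene the exposed arrays overlapped the control arrays at every dose.

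Ulk1 encodes the kinase that starts autophagy and is inhibited by mTORC1. Its control arrays ran from -0.78 to -0.06 and its high dose arrays from -0.97 to 0.08, and its changes were 0.07, 0.05 and 0.11, with a 95% interval at the high dose of -0.18 to 0.40. Becn1 encodes Beclin 1, a subunit of the lipid kinase complexes. Its control arrays ran from -0.02 to 0.96 and its high dose arrays from -0.06 to 1.01, and its changes were -0.14, 0.02 and -0.13, with a 95% interval at the high dose of -0.45 to 0.19. In both genes each exposed group reached above the highest and below the lowest control array.

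Atg5 and Atg12 encode the partners of the conjugate that directs LC3 to the membrane. Atg5 had control arrays between -0.37 and 0.13, low dose arrays between -0.66 and -0.17 and high dose arrays between -0.36 and 0.30. Its changes were -0.18, -0.13 and 0.09, with limma adjusted p of 0.543, 0.708 and 0.807. The brighter Atg12 probe had no value on the replicate 3 arrays of all groups and gave -0.16, 0.42 and 0.32. Its other probe, measured on all arrays, gave 0.23, 0.22 and 0.30 (limma adjusted p = 0.428, 0.446 and 0.165). The sign of the low dose value thus differed between the probes. On low dose replicate 4 the brighter probe stood at -2.18 and the other at 0.39, and without that array the brighter probe gave 0.32.

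For the 8 genes that were not called, the width of the intervals sets what could be seen. On the brighter probes, the 95% interval of 6 of the 8 at the high dose lay within 1.5-fold in both directions, and those of Gabarapl1 and Atg12 reached beyond it. The other Gabarap probe had a high dose interval of -0.94 to -0.09, which reached beyond 1.5-fold. That of the other Atg12 probe was 0.05 to 0.56, within 1.5-fold. At the low dose 5 of 8 and at the medium dose 4 of 8 intervals of the brighter probes lay within 1.5-fold. None of the 8 was called in any of the 44 alternatives.

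The wider pathway was described with 8 lists of 72 genes in all, the 10 included. Of these, 71 were on the array (Epg5 was not) and 69, 69 and 68 were detected at the low, medium and high dose. At the low dose 2 were higher and 2 lower, at the medium dose 3 and 3, and at the high dose 3 and 3. The genes called beside Sqstm1 and Wipi1 were Sesn2, Atg14, Tecpr1, Bnip3 and Tfeb. The shares called, 4 of 69, 6 of 69 and 6 of 68, stood beside 5.17%, 8.87% and 11.8% of all named genes, and were near the background at each dose. Their median change was 0.0039, 0.06 and 0.04.

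Sesn2 encodes sestrin 2, a stress-induced protein that restrains mTORC1. Its control arrays ran from -0.50 to 0.37 (median 0.23), the low dose arrays from 0.65 to 1.38, the medium dose arrays from 0.53 to 1.61 and the high dose arrays from 0.97 to 2.23. Every exposed array was above every control, a gap found in 2.23%, 5.05% and 5.66% of all genes at the low, medium and high dose. Sesn2 rose by 1.01, 1.13 and 1.43, with limma adjusted p of 0.000672, 0.000163 and 4.57e-06. The other upstream kinases and regulators on the list, Mtor, Rptor, Tsc1, Tsc2, Prkaa1, Prkaa2, Ddit4, Tfe3 and Foxo3, were not called. Of the 11 genes of that list, 10 were detected in the high dose comparison. Of Sesn2, the low dose call alone was lost in an alternative (0.88 with median centring, limma adjusted p = 0.0520).

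Tfeb encodes a transcription factor of lysosome and autophagy genes, and its values moved the other way. Its controls ran from -0.43 to 0.59 (n = 4), the low dose arrays from -1.88 to 0.09 (n = 5), the medium dose arrays from -1.75 to -0.57 (n = 4) and the high dose arrays from -1.46 to -0.40 (n = 6). The arrays numbered 4 of the control, low and medium dose, all on slide 2, had no value. The change was -0.94 at the low dose (limma adjusted p = 0.0643, not called), -1.20 at the medium (0.0131) and -1.29 at the high dose (0.00412). The medium dose call was lost on removal of any one of control replicates 2 and 3 and medium dose replicates 1 and 5 (limma adjusted p up to 0.0605), and it was also lost without slide 3 (-1.11, limma adjusted p = 0.136), without the slide term (limma adjusted p = 0.0925) and in an ordinary linear model without variance shrinkage (adjusted p = 0.0685). The high dose call was lost without slide 3 (-1.20, limma adjusted p = 0.0617). The low dose change was called on removal of low dose replicate 2 or 6 or medium dose replicate 2, and, at -0.70 (limma adjusted p = 0.0489), without low dose replicate 1 and medium dose replicate 2, where the medium dose change was -1.44.

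Of the 10 detected genes of membrane delivery and lipid transfer, Wipi1 alone was called, at the low dose. Of the complexes that build the autophagosome, Atg14, the subunit that directs the Beclin 1 complex to autophagy, rose at the medium dose (0.66, limma adjusted p = 0.00200) and the high dose (0.76, limma adjusted p = 0.000260). Its value at the low dose was 0.39 (limma adjusted p = 0.0865). Its control arrays ran from -0.90 to -0.14 and its high dose arrays from -0.17 to 0.57, with 5 of 6 above every control. The medium dose call was lost with median centring (0.68, limma adjusted p = 0.106), and both calls were lost at a 2-fold threshold. In the initiation kinase list none of 5 detected genes was called. Of these, Atg101, which stabilises ATG13 and was picked out after its values were seen, had changes of 0.51, 0.46 and 0.56 with limma adjusted p of 0.000999, 0.00198 and 0.000119, all under 1.5-fold. Without control replicate 5 or high dose replicate 6 its high dose change was 0.61 and was called. None of the 10 detected genes of the conjugation list and none of the 5 ATG8 genes was called at any dose. Over all named genes 5.17%, 8.87% and 11.8% were called from the low to the high dose. At these shares lists this short, the initiation list included, may hold no call, so the lack of calls was near the background.

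Among 13 cargo receptors, Sqstm1 rose and Bnip3, a receptor for mitochondria, fell. Bnip3 was between -3.71 and -1.91 on the control arrays and between -4.14 and -3.71 on the high dose arrays, where 5 of 6 were below every control. Its change was -0.42 at the low dose (limma adjusted p = 0.337), -0.88 at the medium (0.00918) and -0.88 at the high dose (0.00519). With slide 1 left out the medium and high dose changes were -0.52 (limma adjusted p = 0.152) and -0.43 (limma adjusted p = 0.195), and neither was called. Both calls were also lost with median centring (limma adjusted p = 0.304 and 0.0831) and at a 2-fold threshold, and the medium dose call without slide 3 (limma adjusted p = 0.0553) or the slide term (limma adjusted p = 0.0560). The other 11 receptors, among them Nbr1, Optn and Tax1bp1, were not called.

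Of the 7 fusion genes detected, Tecpr1, which links autophagosomes to lysosomes, fell at each dose (n = 5 at the low dose, where replicate 4 had no value). Its controls ran from -1.60 to -0.60, and the high dose arrays from -2.74 to -1.94, all 6 below every control. Such a gap was found in 5.73% of all genes at the high dose. The change was -0.74 at the low (limma adjusted p = 0.0234), -0.87 at the medium (0.00334) and -1.01 at the high dose (0.000423). The low dose call was lost in 14 of 44 alternatives, 5 of them the removal of a single array (control replicates 3 and 5, low dose replicates 2, 3 and 6). The medium dose call was lost with median centring (-0.78, limma adjusted p = 0.207) and at a 2-fold threshold.

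**Figure D4:**
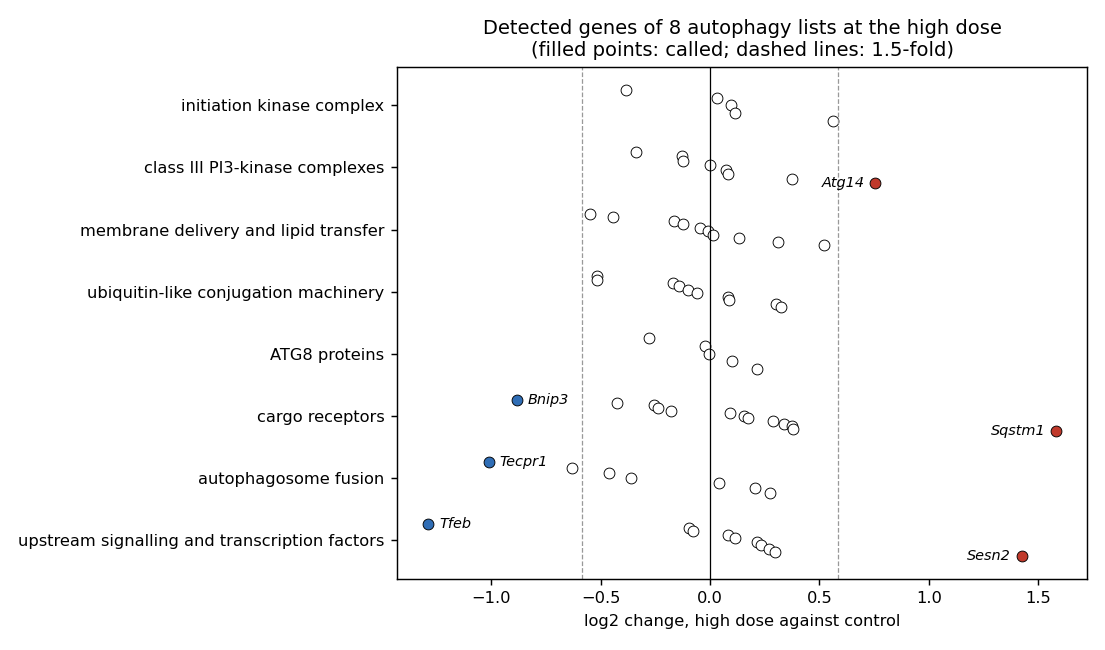
Log2 change at the high dose against control (x axis) of the detected genes of each of the 8 autophagy lists (y axis), with 1 point a gene. Filled points were called, red higher (Sqstm1 1.58, Sesn2 1.43, Atg14 0.76) and blue lower (Tfeb -1.29, Tecpr1 -1.01, Bnip3 -0.88), and the dashed lines mark 1.5-fold.

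SQSTM1 competes for KEAP1, and of 5 genes of its signalling partners (Keap1, Nfe2l2, Traf6, Prkcz and Prkci) none was called at any dose. At the low dose 4 of the 5 were detected. So few genes may hold no call where 5.17%, 8.87% and 11.8% of all named genes were called. Nfe2l2, which encodes the transcription factor NRF2, had changes of 0.28, 0.58 and 0.41 (limma adjusted p = 0.520, 0.0602 and 0.192). Keap1, which holds NRF2 in the cytoplasm, had changes of -0.34, -0.40 and -0.46 (limma adjusted p = 0.0795, 0.0304 and 0.00595), all under 1.5-fold. Without low dose replicate 1 and medium dose replicate 2, the medium dose change of Nfe2l2 was 0.69 and was called (limma adjusted p = 0.0170), as it was without medium dose replicate 2 or control replicate 4 alone (0.70 each, limma adjusted p = 0.0211 and 0.0330).

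The genes whose ratio followed that of Sqstm1 most closely over the 22 arrays, after each slide was centred, were Mrm3 (Pearson's r = 0.960), Tut1 (r = 0.939), Champ1 (r = 0.939), Nsun2 (r = 0.934) and Nop56 (r = 0.933), out of 12813 genes. Mrm3 and Nsun2 are RNA methyltransferases, Tut1 a terminal uridylyltransferase and Nop56 a part of the small nucleolar ribonucleoproteins that modify ribosomal RNA. These values are a description, and the arrays they are taken over share slides and dose groups.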

How the data were processed

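The authors extracted spot intensities from 22 two-colour arrays without normalization. Per the file headers, this was done with Feature Extraction 10.7.3.1. The deposited scanner files hold median signal intensity in both channels, quality marks and a log10 ratio corrected by the scanner software. The authors' deposited value table holds log2 ratios by a normalization that is not given in the sources used here.

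From the intensities, 3671 control spots were left out of each array, outlier spots got no value, and the log2 ratio of Cy5 to Cy3, without background subtraction, was normalised by loess. Spots of a probe were combined by their median. A probe was detected if its Cy5 signal was over the mean plus 3 SD of the 308 negative control spots after 5% trimming. All arrays entered 1 model with group and slide, as in the study's methods, fitted with limma 3.58.1 in R 4.3.3 (prior degrees of freedom 5.51) in place of MAANOVA, which was not run. Adjustment was by Benjamini-Hochberg over 55681 probes. The fit was tested on simulated data with a slide effect and noise independent between arrays. Dependence between arrays of 1 experiment was not simulated, so the p-values were not tested under it. Precision is limited by the number of arrays.

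Probes were named through their transcript identifier and RefSeq, for 26413 probes (47.4%). Whether a probe also binds related transcripts was not checked. The members and lists were chosen with earlier results of these data known. Named genes were the 10 members, each by its brightest detected probe, the genes of the 8 lists called at any dose, and the 5 genes most correlated with Sqstm1. Outside this rule, Atg101, Keap1, Nfe2l2, Krt7, Vamp8 and Ykt6 were picked out after their values were seen. The sample numbers of the labels pair arrays across groups: in 31 same-numbered pairs the deviations from the group means correlated at 0.187 or more (median 0.494), against a median of -0.150 for other numbers. The numbers largely coincide with slides.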

Additional observations from a re-analysis of the deposited data

Results flagged for a closer look

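In 60 pairs of a gene and a group, for the 10 members and the 5 other autophagy genes called, 5 held 1 array far from the others, where chance gives about 1 in 20. Map1lc3a was at -1.32 on medium dose replicate 1, with the other 3 arrays between -0.08 and 0.08. Map1lc3b was at -0.43 on the same array, with the other 4 between 0.11 and 0.25. Replicate 1, on slide 1, was the lowest array of every group for both genes, at -1.15 (control), -1.03 (low dose) and -0.81 (high dose) for Map1lc3a and at -0.52, -0.27 and -0.12 for Map1lc3b. Gabarapl1 was at -1.89 on low dose replicate 4, with the other 5 between 0.34 and 1.12. Wipi1 was at -0.025 on high dose replicate 5, with the other 5 between -0.69 and -0.46. Sesn2 was at -0.50 on control replicate 5, with the other 4 between 0.12 and 0.37.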

How the results depend on the processing

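Across 44 alternatives no called value turned its direction, and the 8 genes without a call stayed without one. A change of sign in a value that was not called was not counted. Another scaling moved the median of the detected probes by at most 0.07 (median centring, low dose). At the low dose the 2 calls among the 10 genes became 1 without the slide term, with only the groups compared, with the authors' value table, at a 2-fold threshold, without variance shrinkage, without slide 2, 3 or 5, and without low dose replicate 1 and medium dose replicate 2 together. They became 0 by limma with median centring (2 at an unadjusted p under 0.05; Sqstm1 0.89) and without slide 1 (2 at an unadjusted p under 0.05; Sqstm1 1.02). At the medium dose the 1 call became 0 without slide 1 (2 at an unadjusted p under 0.05; Sqstm1 0.97), a fit with 3 controls. In the 8 lists, the 4 calls at the low dose became 2 with only the groups compared, the authors' value table, a 2-fold threshold, no shrinkage or without slide 3, and 0 with median centring (13 at an unadjusted p under 0.05). They became 7 with adjustment over detected probes or without a fold threshold. The 6 calls at the medium dose became 3 with a 2-fold threshold or median centring and 7 without low dose replicate 1 and medium dose replicate 2, where Ykt6 joined, and the 6 at the high dose became 11 without a fold threshold. The causes of these shifts were not tested. Leaving out each array in turn, Sqstm1 ranged from 0.94 to 1.19, 1.00 to 1.35 and 1.48 to 1.76 at the low, medium and high dose. The calls among the 10 genes then ranged from 1 to 2 at the low dose, stayed at 1 at the medium and ranged from 1 to 2 at the high dose, where Wipi1 joined without control replicate 5. In the 8 lists they ranged from 2 (without control replicate 3) to 6, from 5 to 7 and from 6 to 9. Between doses the calls among the 10 genes were 0 in all alternatives. When the slide term was replaced by a replicate block, this pairing gave Sqstm1 changes of 1.02, 1.17 and 1.59. The block brought a call for Tfeb at the low dose (-0.96, limma adjusted p = 0.00181) and for Vamp8 at the low and high doses, a gene named here after its values were seen, and it changed no other call, though Gabarap reached an adjusted p under 0.05 at less than 1.5-fold at the medium and high doses.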
